A study of Mus musculus with 6 samples.

Results

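The 46 genes described here encode actins, the proteins of actomyosin contraction, actin crosslinkers and membrane linkers, factors of actin filament turnover, and the serum response factor Srf. They were chosen by symbol, and each had its Entrez identifier in the count table of 23725 genes. The table held 6 RNA-seq libraries of 3T3-L1, a mouse embryonic fibroblast line. In the EV group, plates of about 2000000 cells received for 24 h the extracellular vesicles (EVs) of 200000000 MLP29 cells, a mouse liver progenitor line, which carried on average 20 µg of protein (libraries 1, 2 and 4). In the control group, plates received for the same time a mock preparation from medium that had never met cells (libraries 1, 2 and 3). All plates were kept in the same vesicle-depleted medium, the cells were detached with a protease and shared out between this and a proteomic measurement, and each plate had its own EV or mock preparation. The comparison asked how the vesicles changed the transcripts of the fibroblasts, and for these genes how the transcripts of the cell's contractile machinery differed.

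In fibroblasts, beta and gamma actin build the filament network, alpha smooth muscle actin enters stress fibers, and non-muscle myosin II pulls on filaments decorated by tropomyosin and caldesmon. Cofilin, profilin, the thymosins and the Arp2/3 complex govern how filaments grow and are taken apart. When monomeric actin is used up, MRTF coactivators join SRF at the CArG box, a DNA motif in which a pair of C bases and a pair of G bases enclose a run of A and T bases, and many genes of this machinery are known SRF targets.

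RefSeq promoter windows of build GRCm38.p6, 250 bases before to 50 bases after a start site, were found for 41 of the 46 genes, and not for Actb, Actg2, Tagln, Plec and Diaph1. A CArG box lay in a window of 6 of the 41, or 14.6%, against 488 of 27025 genes with windows, or 1.81%. The motif reads alike on both strands. The stretches around these boxes are shown because they link members of different roles and Srf itself, written 5′ to 3′ on the strand of the gene with the boxes in capitals.
Actg1 (chr11:120348546-120348615, minus strand): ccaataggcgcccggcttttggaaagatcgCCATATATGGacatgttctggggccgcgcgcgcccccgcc
Cnn2 (chr10:79988514-79988583, plus strand): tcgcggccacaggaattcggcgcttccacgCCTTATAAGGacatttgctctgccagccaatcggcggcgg
Lima1 (chr15:99820157-99820226, minus strand): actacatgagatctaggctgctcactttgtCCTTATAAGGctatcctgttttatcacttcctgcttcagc
Myl6 (chr10:128493020-128493089, minus strand): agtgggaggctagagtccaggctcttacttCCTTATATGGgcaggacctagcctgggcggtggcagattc
Myl9 (chr2:156775273-156775342, plus strand): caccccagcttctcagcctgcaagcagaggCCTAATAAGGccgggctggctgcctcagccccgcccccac
Srf (chr17:46556185-46556274, minus strand): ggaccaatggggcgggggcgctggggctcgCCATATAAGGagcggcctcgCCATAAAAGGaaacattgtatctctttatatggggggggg
The box of Lima1 ended 37 bases and that of Myl9 151 bases before the start site, the nearest and the farthest of the single boxes. Srf, the factor that binds such boxes, carried a pair of them.

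The libraries held between 508599 and 665465 counts. Of 12 fibroblast marker genes, Lum was at 0 in every library and 11 could be tested, 7 of which fell after EV treatment, against 14.4% of all 5066 genes tested (median log2 fold change -1.06 against 0.014 for all genes, with summed counts of 1265 to 1665 in the control and 495 to 755 in the EV libraries). Of 10 markers of liver progenitors and hepatocytes 8 were at 0 in every library, among them Alb, Afp, Krt8, Krt18 and Epcam, and their sum was 9 to 13 counts in the control and 9 to 11 in the EV libraries, nearly all under Sox9. Markers of smooth muscle (6 genes, Myocd at 0) summed to 12 to 22 and 7 to 11 counts, those of adipocytes (6 genes, Adipoq, Plin1, Lep and Cidec at 0) to 3 to 7 and 2 to 3, and those of macrophages (5 genes, Ptprc and Adgre1 at 0) to at most 5.

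The strand setting used to count the reads of this stranded kit is not given in the sources used here, and the members were counted low for genes that fibroblasts express strongly. None was among the 100 most counted genes. Cald1 came highest at rank 139, and Actb was at rank 994. These files do not settle whether reads were assigned to the strand of the gene or to the strand opposite it. In the latter case the count printed for a gene would be a small remainder of its reads, or reads of a gene on the other strand. Every value in this text, those of the marker genes included, is therefore what was listed under an identifier, and "fell" and "rose" refer to these counts and not to the amount of mRNA. A measure of the strand was read from 107 pairs of genes, none of them a member, that overlap on opposite strands and of which one had at least 20 times the counts of the other. The less counted genes held 2.50%, 2.74% and 2.28% of the counts of the more counted genes in control libraries 1, 2 and 3. In EV libraries 1, 2 and 4 this was 1.67%, 1.88% and 1.91%, below every control library. This measure and the treatment therefore separate the libraries in the same way, and their parts in the differences below cannot be told apart.

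The counts listed under the actin cytoskeleton genes were lower after EV treatment across all the roles that could be tested. The 46 genes together held 0.653%, 0.671% and 0.562% of the counts in control libraries 1, 2 and 3, and 0.306%, 0.359% and 0.379% in EV libraries 1, 2 and 4. Counts were high enough to test 38 of the 46. Of these 29 fell (edgeR's quasi-likelihood test, Benjamini-Hochberg adjusted p under 0.05), against 14.4% of all 5066 genes tested, and 9 did not pass. This share of all genes also stands beside the counts by role given below. No member rose, at an adjusted p or at an unadjusted p of 0.05 (0 of 38 in edgeR), where 7.68% of all genes did at an adjusted p. The DESeq2 Wald test called 23 members lower and 0 higher, against 5.80% and 4.84% of all genes. The median log2 fold change of the 38 was -0.88, against 0.014 for all genes tested. In 31 of the 38 the highest EV value lay under the lowest control value, against 21.5% of all genes tested. Whether a lower count stands for less mRNA was not tested. If it does, fewer cells with a transcript and less of it per cell cannot be told apart in such bulk samples.

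**Figure D1:**
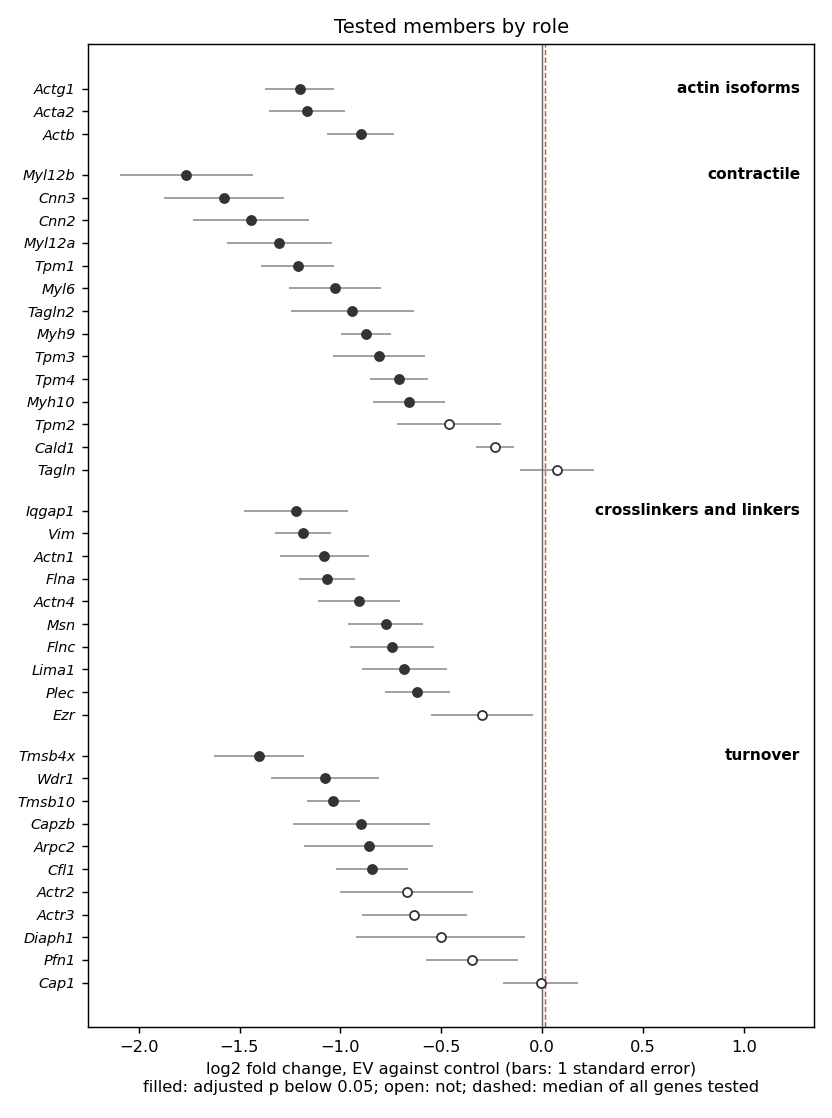
The log2 fold change of EV against control libraries is plotted for the 38 tested genes, grouped by role, with bars of 1 standard error from edgeR. Filled points mark the 29 genes past an adjusted p of 0.05, all to the left of 0, and the dashed line the median of all genes tested, 0.014.

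Of the actin isoforms, all 3 that could be tested fell. Actb (chromosome 5, 142903115 to 142907976 of GRCm38), the gene of beta actin, was counted 116, 162 and 129 times in the control and 36, 79 and 75 times after EV. This was 226 ± 32.7 against 120 ± 37.8 CPM normalized with the TMM factors (SD, n = 3 each), a log2 fold change of -0.90 (standard error 0.16, edgeR, adjusted p = 4.45e-05). Its lowest value lay in EV library 1, and the groups did not overlap. Actg1 (chromosome 11, 120345687 to 120348495), the gene of gamma actin, had 98, 103 and 117 counts in the control and 33, 41 and 46 after EV (log2 fold change -1.20, standard error 0.17, edgeR, adjusted p = 3.11e-07). Acta2 (chromosome 19, 34240336 to 34255585), the gene of alpha smooth muscle actin and a common marker of activated fibroblasts, had 100, 126 and 96 counts in the control and 23, 65 and 37 after EV (log2 fold change -1.17, standard error 0.19, edgeR, adjusted p = 4.56e-06). The groups of both genes were apart in normalized CPM. Actg2, the enteric smooth muscle actin, had 0 to 8 counts in the control and 2 or 3 in the EV libraries, too few to test.

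Per kilobase of exon, the listed counts in the control were 84.5 ± 12.2 normalized CPM for Actb, 81.9 ± 12.6 for Acta2 and 66.6 ± 3.14 for Actg1 (SD, n = 3). Those of Actb and Acta2 did not differ beyond their spread. With the strand setting unknown, these values do not rank the genes by amount of mRNA. In the EV libraries the same quantity was 44.7 ± 14.1, 35.5 ± 15.3 and 28.9 ± 3.77, with overlapping spreads. The log2 ratio of Acta2 to Actb, which does not depend on library scaling, was -0.33 ± 0.11 in the control and -0.64 ± 0.37 in the EV libraries (SD, n = 3, exact permutation test, two-sided, p = 0.3, adjusted p = 0.7 over 7 pairs). That of Actg1 to Actb was -0.34 ± 0.27 and -0.59 ± 0.42 (exact permutation test, two-sided, p = 0.5, adjusted p = 0.7). With 3 libraries against 3 the smallest p this test allows is 0.1, so it could not show an unequal change. Reads could be shared with copies: of the distinct 50-base words in Actg1 transcripts, 37.4% occur in a transcript of another gene, mostly the pseudogene Gm12715, against 9.12% for Actb and 0.326% for Acta2. This share was over 5% for 13 of the 46 members, and 16 had no such word. Among the 13 were Tagln (58.3%), Actr3 (26.3%), Cnn3 (24.0%), Tpm3 (23.2%) and Cfl1 (18.3%).

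Of 16 contractile genes 14 could be tested, and 11 fell. The median log2 fold change was -0.91. Cald1 (caldesmon, chromosome 6, 34598495 to 34775469), which regulates myosin on tropomyosin-bound filaments, was the most counted member, with 752, 777 and 722 counts in the control and 483, 571 and 617 in the EV libraries. Its normalized CPM overlapped between the groups, and its log2 fold change of -0.23 (standard error 0.09) did not pass (edgeR, adjusted p = 0.0645). It did pass without control library 3 (-0.34, edgeR, adjusted p = 0.00626), with the total library size as the only scaling and with a filter of 10 counts per library. Myh9 (chromosome 15, 77760585 to 77842175), the heavy chain of non-muscle myosin IIA, had 356, 425 and 388 counts in the control and 118, 192 and 247 after EV (log2 fold change -0.87, standard error 0.12, edgeR, adjusted p = 3.10e-07). Tpm4 (chromosome 8, 72135288 to 72153142), a tropomyosin, had 140, 163 and 153 counts in the control and 59, 104 and 80 after EV (log2 fold change -0.71, standard error 0.14, edgeR, adjusted p = 0.00026). Of its words 15.7% occur in other genes.

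The regulatory light chains of non-muscle myosin, which switch the motor on when phosphorylated, had some of the largest differences. Myl12b had 19, 31 and 37 counts in the control and 5, 8 and 9 in the EV libraries, 3.40-fold lower by the fitted log2 fold change of -1.76 (standard error 0.33, edgeR, adjusted p = 6.42e-05). Its neighbour Myl12a had a log2 fold change of -1.30. The transcripts of this pair share 17.6% of the words of Myl12b and 16.2% of those of Myl12a, so the counting could have split their reads. Myl6, the essential light chain, had -1.03, and Myl9, the smooth muscle light chain, had 0 to 4 counts per library and was not tested. Among the calponins, which bind actin and restrain myosin, Cnn3 had a log2 fold change of -1.58 and Cnn2 one of -1.44, while Cnn1, the smooth muscle calponin, was at 0 in all 6 libraries, below 3 counts in each.

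Among the tropomyosins, the filament-coating proteins that set which motors bind, Tpm1 fell by 1.21 and Tpm3 by 0.81 on the log2 scale. Tpm2, with 28, 35 and 29 counts in the control and 17, 18 and 23 in the EV libraries, had -0.46 (standard error 0.26) and did not pass (edgeR, adjusted p = 0.184). The log2 ratio of Tpm2 to Tpm1 was -1.86 ± 0.20 in the control and -1.09 ± 0.36 in the EV libraries (SD, n = 3). The groups were apart, and the p of 0.1 is the smallest this exact permutation test allows (two-sided, adjusted p = 0.7 over 7 pairs). Myh10, the heavy chain of myosin IIB, fell by 0.66, and its ratio to Myh9 was -2.27 ± 0.08 and -2.01 ± 0.43 on the log2 scale (exact permutation test, two-sided, p = 0.4, adjusted p = 0.7). Tpm3 no longer passed without control library 1 (-0.69) or EV library 1 (-0.59), and Myh10 did not without EV library 2 (-0.52).

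Tagln and Tagln2 encode the calponin-related transgelins. Tagln2 had 21, 29 and 30 counts in the control and 15, 6 and 15 after EV. Its log2 fold change of -0.94 passed (edgeR, adjusted p = 0.0207), but not when control library 2 (-0.93), control 3 (-0.93) or EV library 2 (-0.53) was left out. Tagln (chromosome 9, 45929628 to 45936058), also called SM22 alpha and a widely used SRF target, was singled out after its values were seen, because no other tested member had a positive log2 fold change. It had 65, 55 and 60 counts in the control and 58, 63 and 44 in the EV libraries, 101 ± 16.6 against 106 ± 19.6 normalized CPM (SD, n = 3) and a log2 fold change of 0.07 (standard error 0.18, edgeR, adjusted p = 0.797). The groups overlapped. The sign was negative without control library 2 (-0.038) or control library 3 (-0.0070) and with the total library size as the only scaling (-0.063). Exons of other genes on the opposite strand cover 67.9% of the exon length of Tagln, the largest such share among the members, most of it under the antisense gene Gm48529 (1241 bases).

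**Figure D2:**
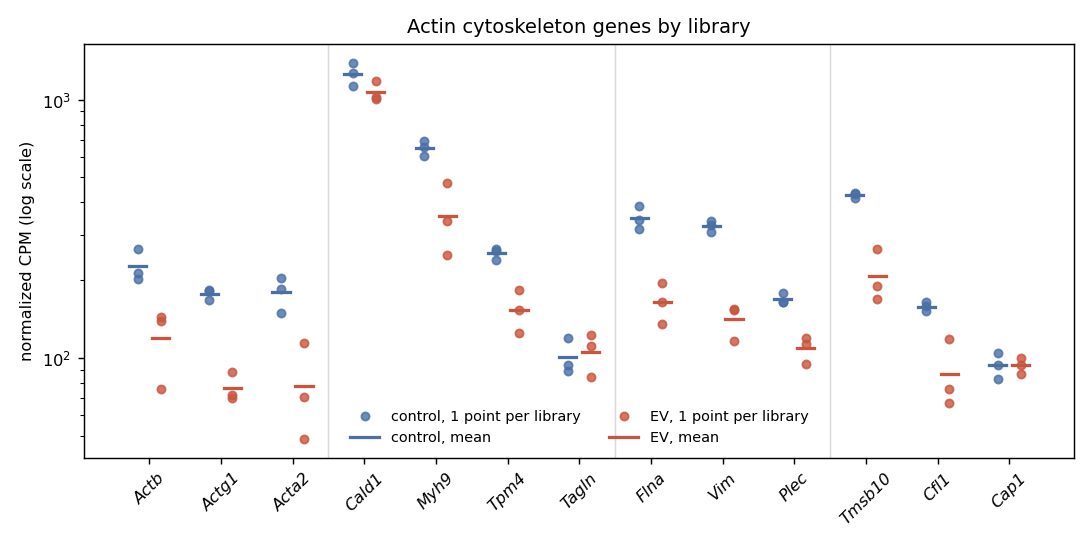
Normalized CPM on a log scale is shown for 13 members in each library (points) with the group mean (line), for the actin isoforms, contractile genes, crosslinkers and turnover factors from left to right. The EV libraries lie below the control libraries except for Cald1, Tagln and Cap1, where the groups overlap.

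Of 12 genes of crosslinkers and linkers 10 could be tested, and 9 fell, with a median log2 fold change of -0.84. Flna (chromosome X, 74223461 to 74249854), the gene of filamin A, which holds filaments in an orthogonal network, had 186, 239 and 202 counts in the control and 64, 111 and 86 after EV (log2 fold change -1.07, standard error 0.14, edgeR, adjusted p = 2.56e-08). Vim (chromosome 2, 13574311 to 13582826), the intermediate filament protein of mesenchymal cells, had 183, 202 and 197 counts in the control and 55, 87 and 81 in the EV libraries, and the lowest adjusted p of all members (log2 fold change -1.18, standard error 0.14, edgeR, adjusted p = 2.54e-09). Plec (chromosome 15, 76170974 to 76231378), the gene of plectin, which ties intermediate filaments to actin, had 89, 101 and 114 counts in the control and 45, 68 and 59 after EV (log2 fold change -0.62, standard error 0.16, edgeR, adjusted p = 0.00404). None of these 3 genes has an exon overlapped on the opposite strand, and in each the groups did not overlap.

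The alpha-actinins, which bundle filaments, both fell, Actn1 by 1.08 and Actn4 by 0.91 on the log2 scale, and the log2 ratio of Actn4 to Actn1 was 0.21 ± 0.01 in the control and 0.36 ± 0.55 in the EV libraries (exact permutation test, two-sided, p = 1.0, adjusted p = 1.0). Flnc, the muscle filamin, fell by 0.74, and its log2 ratio to Flna was -1.87 ± 0.15 and -1.51 ± 0.41 (exact permutation test, two-sided, p = 0.2, adjusted p = 0.7). The scaffold Iqgap1 fell by 1.22, and Lima1 (EPLIN), which stabilizes filaments, by 0.68. Of the proteins that link actin to the membrane, Msn (moesin) fell by 0.78 (log2 fold change -0.51 without EV library 1), while Ezr (ezrin) had 26, 31 and 32 counts in the control and 17, 28 and 18 in the EV libraries and did not pass (log2 fold change -0.30, edgeR, adjusted p = 0.406). Without control library 2 or without EV library 4, Flnc (-0.62 and -0.61) and Lima1 (-0.59 and -0.49) did not pass. The LIM domain genes Pdlim7 and Csrp1 had 2 to 13 and 3 to 9 counts per library and were not tested.

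Of 13 turnover genes 11 could be tested, 6 of which fell and 5 of which did not pass, with a median log2 fold change of -0.84. The thymosins, small proteins of which beta-4 holds actin monomers in reserve, were lower by more than the spread. Tmsb10 (chromosome 6, 72957347 to 72958748) was counted 233, 268 and 267 times in the control and 80, 108 and 138 after EV (log2 fold change -1.04, standard error 0.13, edgeR, adjusted p = 1.24e-08). Per kilobase of exon its listed counts were the highest of any member in both groups, with 335 ± 7.53 and 163 ± 39.3 normalized CPM (SD, n = 3). Tmsb4x fell by 1.40. Of the words of Tmsb10 27.0% occur in other genes, mostly Gm9844, and of those of Tmsb4x none.

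Cfl1 (cofilin 1, chromosome 19, 5490455 to 5494031), which severs filaments, had 86, 101 and 97 counts in the control and 36, 67 and 35 after EV (log2 fold change -0.84, standard error 0.18, edgeR, adjusted p = 0.000445). Wdr1, the cofactor of cofilin, fell by 1.08. Cap1 (chromosome 4, 122859048 to 122886076), which recycles actin monomers from cofilin, had 45, 58 and 67 counts in the control and 41, 57 and 49 in the EV libraries, 94.0 ± 10.8 against 93.7 ± 6.89 normalized CPM (SD, n = 3) and a log2 fold change of -0.01 (standard error 0.19, edgeR, adjusted p = 0.981). The sign of this value changed without control library 3 (0.047), EV library 1 (0.082) or EV library 4 (0.035). Pfn1 (profilin 1), which feeds monomers to growing ends, had 35, 53 and 35 counts in the control and 23, 37 and 24 in the EV libraries and did not pass (log2 fold change -0.35, edgeR, adjusted p = 0.27).

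Of the members in the Arp2/3 complex, which starts branches, Arpc2 passed narrowly. It had a log2 fold change of -0.86 (edgeR, adjusted p = 0.0447) and Capzb, a subunit of the capping protein, one of -0.90 (adjusted p = 0.0476). Capzb did not pass without any one of the 6 libraries (-1.01 to -0.79), nor did Arpc2 without control library 1 (-0.76), control library 2 (-0.79), EV library 1 (-0.66) or EV library 4 (-0.77). Actr2 (-0.67) and Actr3 (-0.63), the actin-related subunits, did not pass (edgeR, adjusted p = 0.131 and 0.0699), and Actr3 ranged from -0.85 without EV library 2, where it passed, to -0.32 without EV library 4. Their log2 ratio was 0.83 ± 0.42 and 0.79 ± 0.63 (exact permutation test, two-sided, p = 1.0, adjusted p = 1.0). Diaph1, a formin that lengthens unbranched filaments, had 2 to 16 counts per library and did not pass (log2 fold change -0.50, standard error 0.42, and -0.019 without EV library 4). Arpc5 had 5 to 10 counts and was not tested.

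Srf itself (chromosome 17, 46546838 to 46558267) was counted 8, 11 and 4 times in the control and 5, 5 and 9 in the EV libraries. Mical2 (chromosome 7, 112225825 to 112355194), an enzyme that oxidizes actin and promotes SRF activity, had 9, 10 and 5 counts in the control and 3, 1 and 2 in the EV libraries. Both were too few for the test, and only the values of Srf overlapped between the groups. The study, by its own DESeq2 analysis, listed both transcripts as significantly lower after EV. The counts of Srf given here do not show this. Of the 29 members that fell here, none is in the study's list, and the reason was not tested. The 4 tested genes with a CArG box in their window, Actg1, Cnn2, Lima1 and Myl6, were all among the 29 that fell. As 29 of all 38 tested members fell, this count does not set the genes with a box apart. The other 2, Myl9 and Srf, were not tested, and Tagln had no window.

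The opposite strand was looked at for each member. For 12 members, part of an exon is covered by another gene's exon on the other strand. Of these 12 members 9 fell, against 14.4% of all genes tested, with a median log2 fold change of -0.87. Of the 34 without such an overlap 26 were tested and 20 fell, with a median of -0.88. Among all genes tested the median was 0.13 for the 2066 with an overlap and -0.21 for the 2625 without. When only the latter were fitted and scaled together, 13 of the 26 members passed, against 12.2% of all genes in that fit, and their median was -0.70, against -0.025 for all genes in that fit. The members that no longer passed were Tagln2, Myh10, Flnc, Plec, Lima1, Capzb and Arpc2.

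Of the overlapping genes, 5 more besides Pcsk7 at Tagln were coding genes with a row of their own, and those at Myl12a and Ezr had at most 1 count per library. Capn12 overlaps Actn4 by 316 bases and had 709, 794 and 972 counts in the control and 643, 909 and 770 after EV (log2 fold change 0.11, standard error 0.09, edgeR, adjusted p = 0.398). Actn4 had 55, 69 and 68 and then 22, 40 and 27, so that its part of the counts of both genes was at least 6.54% in each control library and at most 4.21% in each EV library. Ppt1 overlaps Cap1 by 129 bases and had 311, 313 and 406 counts in the control and 327, 407 and 380 after EV (log2 fold change 0.32, standard error 0.10, edgeR, adjusted p = 0.021). Snx32 overlaps Cfl1 by 468 bases and had 21, 23 and 26 counts in the control and 18, 35 and 28 after EV, and did not pass (log2 fold change 0.41, edgeR, adjusted p = 0.237). Ppt1 rose and the other two did not pass, so that none of these 3 opposite-strand genes fell, and whether reads of one were listed under the other was not tested.

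**Figure D3:**
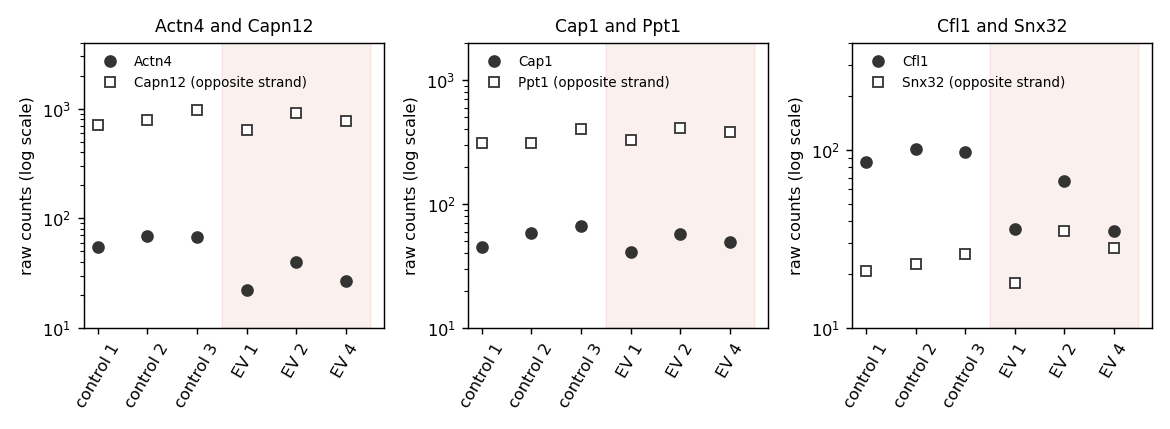
Raw counts per library on a log scale are shown for Actn4, Cap1 and Cfl1 (filled circles) and the gene overlapping each on the opposite strand (open squares), with the EV libraries shaded. Actn4 and Cfl1 are lower in the EV libraries, while the counts of Capn12, Ppt1 and Snx32 overlap between the groups.

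Another scaling shifts all genes by nearly the same amount, the members included. With the libraries scaled to the less counted genes of the 107 pairs, a setting chosen after seeing the data, the median of all genes was 0.20 and that of the members -0.70, and 23 members fell, against 9.40% of all genes. With the total library size alone the medians were -0.12 and -1.02, and 31 fell, against 19.1% of all genes. Over all genes the split of lower and higher calls was 732 and 389 with TMM, 970 and 90 with the total library size, and 476 and 904 with the scaling to the pairs. EV library 1 held the lowest normalized CPM of 23 of the 38 tested members, and without it the members' median was -0.78 and 26 fell, against 8.86% of all genes. Without a filter on low counts 22 members fell, against 3.21% of all genes.

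**Figure D4:**
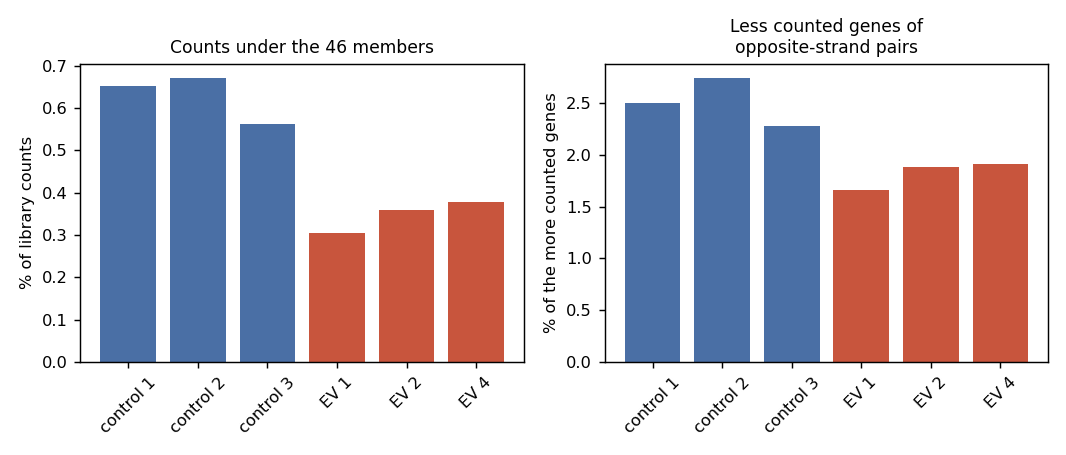
The left panel gives the counts listed under the 46 genes as a percentage of all counts of a library, and the right panel the less counted genes of 107 opposite-strand pairs as a percentage of the more counted ones. Both are lower in every EV library than in every control library, 0.306% to 0.379% against 0.562% to 0.671% on the left and 1.67% to 1.91% against 2.28% to 2.74% on the right.

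A list of 74 further genes of the actin pathway was read beside the members, other actins, Arp2/3 and capping subunits, the WAVE complex and spectrins among them. Of the 43 that could be tested 14 fell and 1 rose, against 14.4% and 7.68% of all genes, and 28 did not pass. The median log2 fold change was -0.49, against 0.014 for all genes. The lowest adjusted p among those that fell were those of Sptbn1, a spectrin of the membrane skeleton (log2 fold change -1.20, standard error 0.18, edgeR, adjusted p = 8.03e-07), Rdx, the gene of radixin and a relative of Msn and Ezr (-1.29, adjusted p = 4.27e-05), and Arpc1b, an Arp2/3 subunit (-1.02, adjusted p = 9.58e-05). Exons of Sptbn1 and Arpc1b are overlapped on the opposite strand. The gene that rose was Actn2, the alpha-actinin of striated muscle, with 17, 20 and 10 counts in the control and 40, 31 and 55 after EV (log2 fold change 1.62, standard error 0.27, edgeR, adjusted p = 7.70e-06), while Actn1 and Actn4 of the same family fell. Whether these 3 genes differ in response was not tested as a difference. The MRTF coactivator genes were named after their values were seen. Mrtfa had 8, 8 and 9 counts in the control and 2, 2 and 4 after EV, too few to test. Mrtfb had 148 ± 27.1 and 188 ± 9.64 normalized CPM (SD, n = 3) and did not pass (log2 fold change 0.35, edgeR, adjusted p = 0.0847).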

How the data were processed

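RNA-seq libraries of 3 control and 3 EV-treated plates of 3T3-L1 cells were compared. Reads were examined with FASTQC, mapped by STAR to mm10 and assigned to genes by Rsubread, and the authors deposited unnormalized counts, one column per library. Tool versions and the strand setting are not given in the sources used here. Proteomics and qPCR were not analysed here.

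Of the 23725 identifiers 99.8% had a RefSeq symbol (GRCm38.p6, the assembly of mm10) and 88.7% matched GENCODE release M21, the source of exon lengths, 50-base words (searched in both orientations) and opposite-strand overlaps. Pairs for the strand measure had an overlap of at least 200 bases and at least 1000 counts under the more counted gene.

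The count model was edgeR's (version 4.0.16, under R 4.3.3) with filterByExpr, TMM, glmQLFit and glmQLFTest and no covariates. Benjamini-Hochberg adjustment ran over the 5066 genes tested, with a threshold of 0.05. The study itself used DESeq2, here an alternative (version 1.42.0). This alternative is not a repeat of the study's own analysis. The study's list of changed transcripts was shorter and held none of the 29 members that fell here. The standard error is the size of the log2 fold change over the square root of F. Ratios between members used counts plus 0.5 and an exact two-sided permutation test. Plates were separate, but all came from 1 cell line, so p-values measure the spread between plates. No pair of replicates agreed within sampling noise (chi-square over degrees of freedom 1.15 to 1.76). The fits were tested on simulated data. The simulation raised as many genes as it lowered and held no strand difference, so it does not bear on the strand measure.

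The members, lists and rules were chosen with earlier results of these data known. Counts per library are given for the actin isoforms, the 3 most counted members of each other role group, Srf, Mical2 and any member that rose. Other members with counts per library, and Tagln, were added after their values were seen. From the further pathway list up to 3 genes a direction were named, those of lowest adjusted p. Alternatives were DESeq2's size factors, the total library size, the DESeq2 Wald test, no filter, a minimum of 10 counts per library, the legacy and robust fits, the replicate number as a block, genes without opposite-strand overlap, and each library left out. Scaling to the opposite-strand pairs was added after seeing the data.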

Additional observations from a re-analysis of the deposited data

How the results depend on the processing

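Of the 29 members that fell, 21 passed in every alternative in which they were fitted. The exceptions were Tagln2, Myh10, Tpm3, Flnc, Plec, Lima1, Capzb and Arpc2. The number that fell was 23 in the DESeq2 Wald test, against 5.80% of all genes, and 22 without a filter, against 3.21%. When single libraries were left out it was 24 to 28, against 7.93% to 15.5% of all genes. It was 13 of 26, against 12.2% of all genes, when only genes without an opposite-strand overlap were fitted. In that fit fewer members entered and the scaling differed. No member rose in any alternative. Tagln had a log2 fold change of -0.063 with the total library size, -0.0083 with a filter of 10 counts per library, and -0.038 to 0.26 with each library left out. Cap1 had 0.011 with DESeq2's size factors, 0.012 in the DESeq2 Wald test, 0.079 without a filter, 0.18 with the scaling to opposite-strand pairs, and -0.11 to 0.082 with each library left out. The log2 ratios of Actn4 to Actn1 (-0.17 to 0.35) and of Actr3 to Actr2 (-0.33 to 0.30) also changed sign with single libraries. The cause was not tested.

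Whether the replicate numbers pair the libraries is not known, and only numbers 1 and 2 occur in both groups. The deviations of same-numbered libraries from their group means correlated at 0.071 and 0.063. These weak values were the highest of any control and EV library, the others lying between -0.10 and 0.055. With the replicate number as a block, a library whose number occurs in only 1 group adds nothing to the difference between the groups. The block fit therefore rested on the libraries numbered 1 and 2 and is not a check on all libraries. In the block fit 29 members fell, as without the block, against 13.9% of all genes. Capzb (-0.84) no longer passed there, Cald1 (-0.39) did, and Cap1 was at 0.077. Members with few counts per library limit what could be seen: 8 of the 46 were not tested, 1 of them with no count.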
